A study of Rattus norvegicus with 3 samples.

Results

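Cybb, Cyba, Ncf1, Ncf4, Rac2 and Nox4, genes of the NADPH oxidase family, were followed on arrays of the soft tissue around implants and teeth. They were chosen by gene symbol in the probe set annotation, and all 6 of 6 were on the array, with 8 probe sets (groups of short probes read together) among the 20826 that carry 1 gene symbol; the array as a whole gave 14217 named genes. RNA came from 3 soft tissues of the upper molar region of wild type male Sprague Dawley rats, all 9 weeks old, collected by laser microdissection, with 1 array per tissue. Peri-implant connective tissue (PICT) surrounded a titanium alloy implant placed in the fresh extraction socket, oral mucosa connective tissue (OMCT) came from an extraction site that received no implant, and periodontal connective tissue (PCT) surrounded a natural first molar. PICT and OMCT were harvested 4 weeks after extraction. The sample labels give rat for every tissue, although the design text once names mice for PCT; the sources used here do not say whether animals were pooled on an array. With 1 array per tissue no test between tissues could be run and no difference has a replicate check, so every difference compares these arrays.

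The phagocyte NADPH oxidase is a membrane enzyme that passes electrons from NADPH to oxygen and so makes superoxide, which neutrophils and macrophages use against microbes. Cybb encodes its catalytic subunit and Cyba the membrane partner that keeps Cybb stable. Ncf1 and Ncf4 encode cytosolic subunits that move to the membrane on activation, and Rac2 is the small GTPase of blood cells that switches the complex on. Nox4 stands apart from these: it is a related catalytic subunit of fibroblasts, endothelium and other non-phagocytic cells that also pairs with Cyba, needs no cytosolic activators and releases mostly hydrogen peroxide. Superoxide dismutases convert superoxide to hydrogen peroxide, Sod1 in the cytosol, Sod2 in mitochondria and Sod3 outside cells.

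Levels are the deposited intensities on a linear scale. Differences are log2 differences of intensity plus a pseudocount of 8.56 (the 20th percentile of all values) after each array's median was subtracted, and are called relative; a difference without that subtraction is called as deposited. The array medians were 56.5 in PICT, 57.4 in OMCT and 34.3 in PCT, so as-deposited differences from PCT run 0.60 higher for PICT and 0.62 higher for OMCT. A gene counted as higher or lower when its relative difference reached 1 (2-fold) and the brighter array lay at or above its own median. By this rule 3.98% of the 14217 genes were higher and 3.37% lower in PICT versus PCT, 4.15% higher and 4.46% lower in PICT versus OMCT, and 5.66% higher and 4.81% lower in OMCT versus PCT. Of the genes past the rule, 54.2% were higher in PICT minus PCT and 54.1% in OMCT minus PCT, against 94.0% and 89.4% as deposited. The only gauge of spread is between probe sets of 1 gene, whose log2 differences had an SD of 0.44 for PICT minus PCT, 0.41 for PICT minus OMCT and 0.41 for OMCT minus PCT. These probe sets were read on the same arrays, so the SD leaves out variation between arrays, dissections and animals. The comparisons share arrays, PCT being the reference of 2 of them. Keratin genes of epithelium were bright on all arrays (Krt5 had 7965, 8595 and 9565 in PICT, OMCT and PCT), so the labelled connective tissue was not free of epithelium.

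The 5 subunits of the phagocyte complex all stood 2-fold or more above PCT in both PICT and OMCT, while none of them passed the rule between PICT and OMCT. Nox4 differed from them in its gap between PICT and OMCT, which passed the rule with OMCT the higher. Among the 6 members, 5 were higher and 0 lower in PICT versus PCT (background 3.98% and 3.37%), 0 were higher and 1 lower in PICT versus OMCT (4.15% and 4.46%), and 6 were higher and 0 lower in OMCT versus PCT (5.66% and 4.81%). The median relative difference of the members was 1.66, -0.03 and 1.68 in these comparisons, and that of all genes -0.13, -0.04 and -0.08. All 6 members were at or above the array median on at least 1 array. All 8 probe sets exceeded the highest negative control of each array (8.36 in PICT, 3.60 in OMCT and 5.71 in PCT). In these bulk samples fewer cells of a type and less RNA per cell cannot be told apart.

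**Figure D1:**
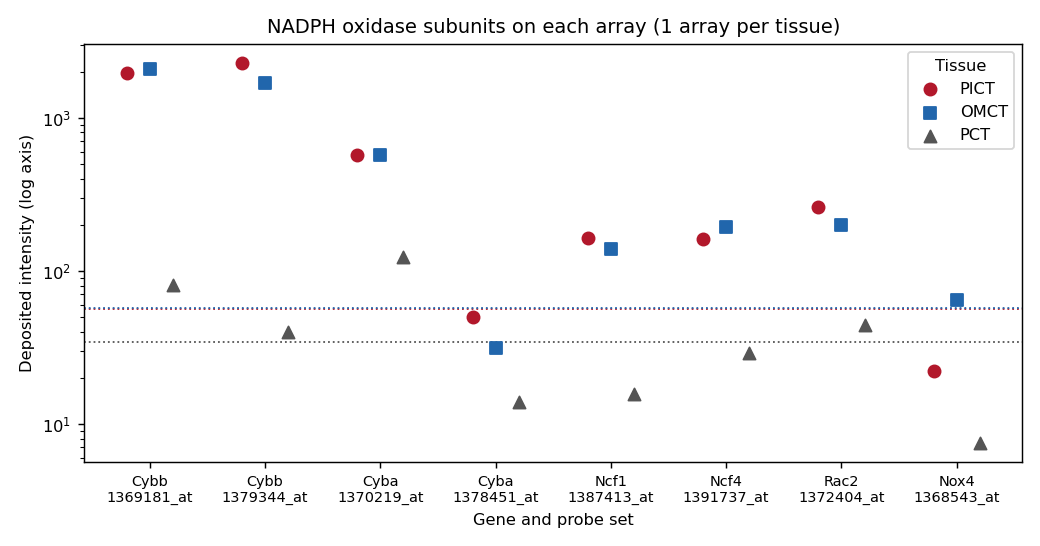
Deposited intensity (log axis) of each probe set of the 6 genes, with PICT as circles, OMCT as squares and PCT as triangles, 1 array each; dotted lines are the array medians (56.5, 57.4 and 34.3). For the Cybb probe sets the PICT and OMCT points lie between 1673 and 2275 and the PCT points at 80.4 and 40.0, whereas Nox4 is highest in OMCT at 64.6.

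Cybb, the catalytic subunit, had the widest gap. Its probe set 1369181_at read 1948 in PICT, 2077 in OMCT and 80.4 in PCT. The second, 1379344_at, read 2275 in PICT, 1673 in OMCT and 40.0 in PCT. Both were far above their array's median in PICT and OMCT, between percentiles 98.4 and 99.1 of all probe sets, and nearer the middle of the PCT array, at percentiles 68.3 and 53.3. The relative difference between PICT and PCT was 3.86 by the first probe set and 4.95 by the second (4.46 and 5.56 as deposited), and only 4 of 14217 genes had a larger one than the first. Between OMCT and PCT it was 3.93 and 4.49 (4.55 and 5.11 as deposited), with 8 genes above the first. The probe sets thus differ in size and share the direction. PICT and OMCT were close: the relative difference was -0.07 by the first probe set and 0.46 by the second, opposite in sign, the first inside and the second just outside the SD of 0.41.

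The sequence upstream of Cybb is shown because this gene carries the widest difference. That of Cyba is not printed, and like Nox4 it had no match to the motifs. The sequences of Ncf1, with the second largest differences from PCT among the members, and of Nox4, for contrast, are printed with that of Cybb. These are the 250 bases before the annotated gene start, from RefSeq on build GRCr8, printed on the gene's own strand, for Cybb chrX:16065066-16065315 (minus strand), Ncf1 chr12:28121635-28121884 (plus strand) and Nox4 chr1:150313639-150313888 (plus strand). Capitals mark matches to the motifs named in the next paragraph.
Cybb: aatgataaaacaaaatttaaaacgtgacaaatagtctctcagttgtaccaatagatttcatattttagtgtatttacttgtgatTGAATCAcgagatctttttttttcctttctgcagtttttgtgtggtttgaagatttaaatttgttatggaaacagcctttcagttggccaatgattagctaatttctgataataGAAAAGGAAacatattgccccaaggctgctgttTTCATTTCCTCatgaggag
Ncf1: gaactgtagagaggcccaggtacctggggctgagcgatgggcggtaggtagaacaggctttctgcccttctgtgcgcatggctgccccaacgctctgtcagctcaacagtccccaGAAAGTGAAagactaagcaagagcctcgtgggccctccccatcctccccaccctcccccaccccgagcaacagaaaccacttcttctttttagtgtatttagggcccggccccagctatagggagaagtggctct
Nox4: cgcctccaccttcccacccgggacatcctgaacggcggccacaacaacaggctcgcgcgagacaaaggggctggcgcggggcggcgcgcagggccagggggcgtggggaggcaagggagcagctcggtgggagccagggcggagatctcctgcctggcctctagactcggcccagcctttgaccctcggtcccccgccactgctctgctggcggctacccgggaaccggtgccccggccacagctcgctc

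Of the 6 members, 4 were in the promoter table (Cybb, Cyba, Ncf1 and Nox4); Ncf4 and Rac2 were not matched. The letters were searched on both strands over 33469 windows of the same length, and positions count back from the gene start, the nearest base being 1. GAGGAA, the core bound by the myeloid factor PU.1, was found in 23.3% of windows, and in Cybb at bases 14 to 9 on the opposite strand. GGAANNGAA, a joint element of Ets and IRF factors, was found in 7.74% of windows and in Cybb at bases 19 to 11, where it overlaps the GAGGAA match. GAAANNGAA, a repeat read by IRF factors, was found in 8.12% of windows, in Cybb at bases 52 to 44 and in Ncf1 at bases 135 to 127. TGANTCA, a pattern that reads alike on both strands and includes the AP-1 element, was found in 6.34% of windows. In Cybb it matched at bases 166 to 160 as TGAATCA, whose centre base A is not the C or G of the AP-1 element. GAGGAAGT (2.04% of windows) and GTCTAGAC, a SMAD element (0.173%), matched in none of the 4 members, and Cyba and Nox4 had no match to any of the 6 motifs in this window. The base composition also differed, with a GC content of 32.0% for Cybb, 58.4% for Ncf1, 59.6% for Cyba and 72.8% for Nox4, against a median of 51.2% over all windows. A match describes letters and is not evidence of binding.

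Cyba, the membrane partner of both Cybb and Nox4, differed less than Cybb. Its brighter probe set, 1370219_at, read 568 in PICT, 574 in OMCT and 123 in PCT. PICT and OMCT were nearly level, and PCT was the lowest, though still at percentile 77.0 of its array. The relative difference was 1.53 for PICT minus PCT, 0.01 for PICT minus OMCT and 1.52 for OMCT minus PCT (2.13, -0.01 and 2.14 as deposited). The second probe set, 1378451_at, was dim, with 50.0 in PICT, 31.0 in OMCT and 13.9 in PCT, below the median of every array. It had the same order of PICT over PCT but smaller differences, 0.78 for PICT minus PCT, 0.58 for PICT minus OMCT and 0.20 for OMCT minus PCT, none past the rule.

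The cytosolic subunits Ncf1 and Ncf4 were both dim in PCT. Ncf1, which organises the complex at the membrane (probe set 1387413_at), read 163 in PICT, 139 in OMCT and 15.5 in PCT. Its PCT signal lay at percentile 34.7 of that array, against 73.9 in PICT and 69.7 in OMCT. The relative difference of Ncf1 was 2.23 for PICT minus PCT and 1.997 for OMCT minus PCT, the second largest among the members in each comparison, and 0.23 for PICT minus OMCT. Ncf4, which binds the phosphoinositide of phagosome membranes (probe set 1391737_at), read 161 in PICT, 192 in OMCT and 28.9 in PCT. OMCT was the highest for Ncf4 and PICT for Ncf1, in both cases by less than the SD between probe sets. The relative difference of Ncf4 was 1.57 for PICT minus PCT, -0.22 for PICT minus OMCT and 1.80 for OMCT minus PCT. As deposited, the difference of Ncf1 was 2.83 for PICT minus PCT and 2.62 for OMCT minus PCT. The plain ratio of its deposited intensities was 10.5 between PICT and PCT and 8.98 between OMCT and PCT; both the subtraction of array medians and the pseudocount make the relative differences smaller than these ratios.

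Rac2, the blood cell GTPase (probe set 1372404_at), read 262 in PICT, 198 in OMCT and 44.4 in PCT. PICT was the highest and PCT the lowest. The relative difference was 1.75 for PICT minus PCT, 1.34 for OMCT minus PCT and 0.41 for PICT minus OMCT, the last being about the size of the SD between probe sets. Rac1, the widely expressed relative that can serve the same complex, read 2900 in PICT, 2288 in OMCT and 2297 in PCT, with relative differences of -0.27 for PICT minus PCT, 0.36 for PICT minus OMCT and -0.63 for OMCT minus PCT, none past the rule.

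Nox4 (probe set 1368543_at) was highest at the extraction site without implant. It read 22.1 in PICT, 64.6 in OMCT and 7.44 in PCT. Its OMCT signal lay at percentile 52.5, just above the array median that the rule asks for, and its PICT and PCT signals at percentiles 32.0 and 22.4, so the gene was dim throughout. The relative difference was -1.24 for PICT minus OMCT and 1.57 for OMCT minus PCT, both past the rule, and 0.33 for PICT minus PCT (0.94 as deposited), which was not. With a pseudocount at the median of all values the first 2 became -0.67 and 0.66, under 2-fold. The PCT signal was close to the highest negative control of that array (7.44 against 5.71), so the size of its differences from PCT is uncertain.

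For PICT minus OMCT, then, the 5 phagocyte subunits ran from -0.22 to 0.41, and Nox4 lay at -1.24. Distances between log2 profiles, each centred on its own mean over the 3 arrays, set both Cybb and Nox4 apart from the other 4 members. Cyba, Ncf1, Ncf4 and Rac2 lay between 0.21 and 0.51 from each other. Nox4 lay 0.93 from Ncf4, its nearest member, and 2.54 from Cybb. Cybb lay 1.47 from Ncf1, its nearest member, and 1.81 to 1.95 from Cyba, Ncf4 and Rac2.

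The genes with the nearest profile were found for each member by the same distance among 9853 genes, over 3 arrays, which is too few points to read likeness as more than a shared order and size. For Cybb they were Tyrobp (the signalling adaptor of myeloid receptors, distance 0.23; intensity 1121 in PICT, 1005 in OMCT and 45.1 in PCT), Pilra (an inhibitory receptor of myeloid cells, 0.32) and Mrc1 (the mannose receptor, 0.35). For Cyba they were Rap1gap2, Adamts1 and Plaur (distances 0.05 to 0.07), and for Ncf1 Klrb1c, Ppm1h and Gpnmb (0.09 to 0.10). For Ncf4 they were Wdfy4, Mmp12 (macrophage elastase) and Atp11a (0.02 to 0.07), and for Rac2 Nectin3, Nr4a3 and Rassf4 (0.08 to 0.11). For Nox4 they were the basement membrane gene Nid2 (147 in PICT, 349.5 in OMCT and 69.8 in PCT), Crispld2 and the matricellular gene Smoc2 (0.05 to 0.07).

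**Figure D2:**
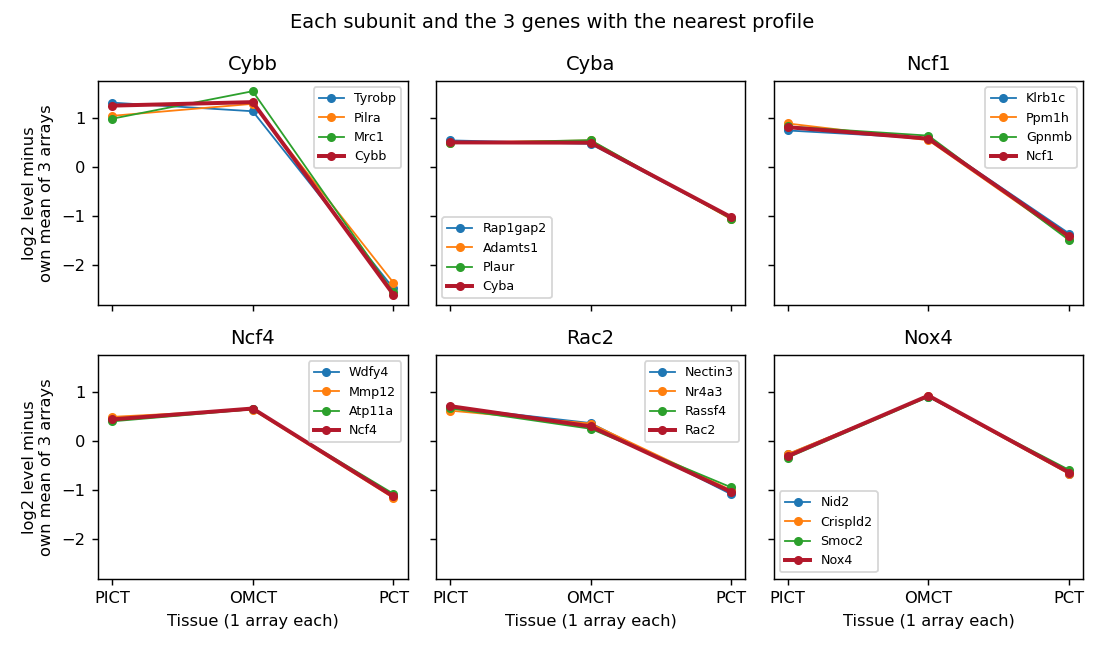
Log2 level of each member (thick red line) and of its 3 nearest genes on the arrays of PICT, OMCT and PCT, each gene centred on its own mean over the 3 arrays; lines only join points of 1 gene, as the tissues have no order. Cybb has the deepest drop in PCT, and Nox4 the widest gap between PICT and OMCT (-1.24).

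Of 14 other genes listed for the oxidase family, 9 were measured, and none of these was past the rule against PCT in PICT or OMCT. Few genes were past it at all: 3.98% higher and 3.37% lower in PICT, 5.66% and 4.81% in OMCT. The result for OMCT depends on the centring. As deposited, 3 of the 9 were higher in OMCT versus PCT (17.6% of all genes) and 0 in PICT versus PCT (14.1%). Their median relative difference was -0.22 for PICT minus PCT and -0.17 for OMCT minus PCT. Sh3pxd2b, a scaffold related to the oxidase organisers, was the one that passed between PICT and OMCT, with 124 in PICT, 409 in OMCT and 134 in PCT and a relative difference of -1.64. Cybc1, a chaperone of Cybb protein, read 185 in PICT, 238 in OMCT and 92.2 in PCT, with 0.34 for PICT minus PCT and 0.67 for OMCT minus PCT. Rap1a, a GTPase found with the complex, differed by 0.17 for PICT minus PCT and 0.43 for OMCT minus PCT. Poldip2, a partner of Nox4, differed by -0.74 in each. The epithelial oxidases were dim. Nox1, of colon and vessel wall, had relative differences of 1.24 for PICT minus PCT and 1.02 for OMCT minus PCT, but lay below the median of every array. It read 41.6 in PICT, 35.1 in OMCT and 5.41 in PCT, the last of which stayed under the brightest negative control. Duox2 stood at 19.5, 20.9 and 13.0, Duoxa1, a maturation factor of the dual oxidases, at 53.6, 70.8 and 56.4, and Noxo1, the organiser of Nox1, at 28.3, 3.33 and 4.18 in PICT, OMCT and PCT.

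Genes around the activation of the phagocyte complex, its receptors, kinases and regulators, were listed too. Of 18 measured among 23 listed, 8 were higher and 1 lower in PICT versus PCT, 7 higher and 1 lower in OMCT versus PCT, and 1 higher and 0 lower in PICT versus OMCT; the medians were 0.62, 0.27 and -0.01. The widest differences between PICT and PCT were those of the Fc receptors Fcgr1a (870 in PICT, 723 in OMCT and 64.5 in PCT, relative difference 2.99) and Fcgr2b (an inhibitory one, 2.46), and of Itgb2, the shared chain of leukocyte integrins (286 in PICT, 337 in OMCT and 21.6 in PCT, 2.69). Itgam, its partner in the complement receptor of phagocytes, differed by 2.40 between OMCT and PCT. It read 102 in PICT, 107 in OMCT and 5.72 in PCT. The PCT value was level with the highest negative control of that array (5.71), so the size of this difference is uncertain. The member of this list that passed between PICT and OMCT was the Fc receptor Fcgr3a, at 1.16. Prkca, a protein kinase C isoform of many cell types, was the lower one against PCT, at -1.23 in PICT and -1.07 in OMCT. As deposited these differences were under 2-fold, at -0.63 and -0.44. Prkcb, an isoform tied to phagocyte oxidase activation, was higher, at 1.02 in PICT and 1.68 in OMCT. Prkcd, another isoform on this list, was not past the rule, at 0.25 in PICT and 0.22 in OMCT.

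No dismutase was higher past the rule in any comparison, and Sod3 was lower in PICT. Sod3, the extracellular enzyme, read 19.4 in PICT, 169 in OMCT and 75.2 in PCT, lowest where Cybb was as high as in OMCT. Its relative difference was -2.19 for PICT minus PCT and -2.65 for PICT minus OMCT, both past the rule, against 0.46 for OMCT minus PCT. Sod2 read 1066 in PICT, 774 in OMCT and 409 in PCT, with differences of 0.76, 0.48 and 0.28 in those comparisons, PICT being highest and PCT lowest as for Ncf1 and Rac2, but all under 2-fold (1.36 for PICT minus PCT as deposited). Sod1 read 1218 in PICT, 1569 in OMCT and 1573 in PCT, with -0.97, -0.34 and -0.63. Cat, the catalase that removes hydrogen peroxide, read 457 in PICT, 629.9 in OMCT and 335 in PCT, with -0.17, -0.44 and 0.27. Thus Cybb differed by -0.07 between PICT and OMCT where Sod3 differed by -2.65, whereas between OMCT and PCT Cybb differed by 3.93 and Sod3 by 0.46. Levels of different probe sets cannot be set against each other, so these values give no balance of superoxide made and removed.

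**Figure D3:**
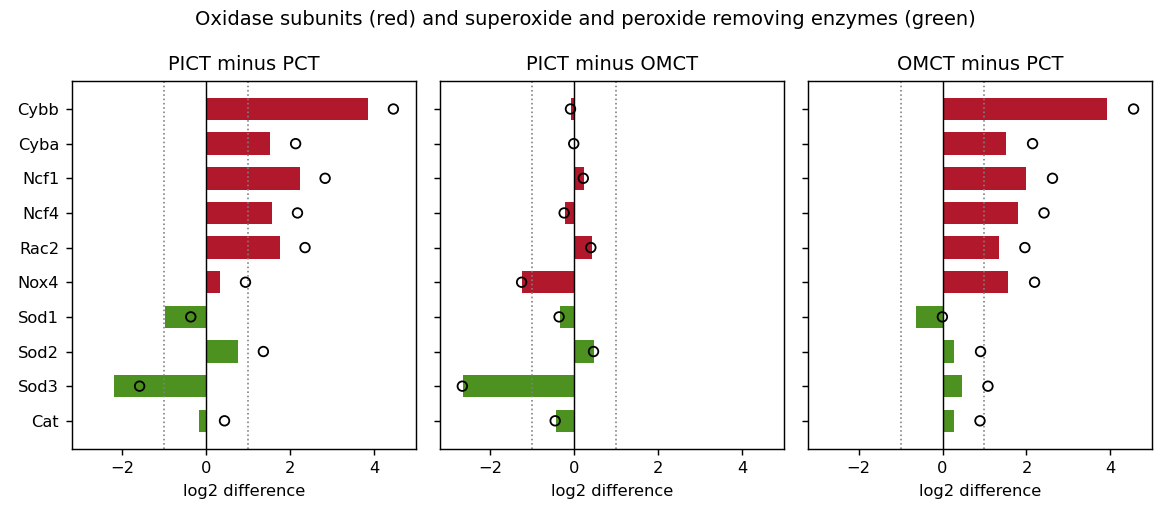
Relative log2 difference (bars) and as-deposited log2 difference (open circles) of the 6 oxidase genes (red) and of Sod1, Sod2, Sod3 and Cat (green) in each comparison; dotted lines mark 1 and -1. Against PCT the phagocyte subunits lie at 1.34 or above in both tissues, while Sod3 lies at -2.19 in PICT and at 0.46 in OMCT.

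Of the 14 measured members of the list of dismutases, catalase and peroxidases, 2 were higher and 2 lower in PICT versus PCT, 0 higher and 4 lower in PICT versus OMCT, and 2 higher and 0 lower in OMCT versus PCT. Besides Sod3, Gpx3 (the secreted glutathione peroxidase) was lower in PICT, at -1.77 against PCT and -2.47 against OMCT. Gpx7 and Gpx8, peroxidases of the endoplasmic reticulum, were highest in OMCT: Gpx7 read 37.1 in PICT, 333 in OMCT and 43.5 in PCT, and Gpx8 read 202 in PICT, 422 in OMCT and 52.8 in PCT. Prdx5, a mitochondrial and peroxisomal peroxiredoxin, was higher in PICT versus PCT by 1.08.

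Against PCT, most pan-leukocyte and macrophage markers moved with the phagocyte subunits, and their part in the differences was not tested. Of 9 measured pan-leukocyte markers, 8 were higher and 0 lower in PICT versus PCT (median 2.22), 8 higher and 0 lower in OMCT versus PCT (median 1.76), and 1 higher and 0 lower in PICT versus OMCT (median 0.10). Their summed intensity was 5416 in PICT, 4989.9 in OMCT and 663 in PCT, and Ptprc, the common leukocyte antigen CD45, differed by 3.26 in PICT and 3.29 in OMCT from PCT. For PICT minus PCT, Cyba, Ncf4 and Rac2 lay below the median of this list, Ncf1 about at it and Cybb above. For OMCT minus PCT, Cyba and Rac2 lay below it, Ncf4 about at it, and Ncf1 and Cybb above. Of 17 macrophage and monocyte markers, 10 were higher and 0 lower in PICT versus PCT (median 1.66), 16 higher and 0 lower in OMCT versus PCT (median 2.60), and 1 higher and 6 lower in PICT versus OMCT (median -0.57), with summed intensities of 7086 in PICT, 9881 in OMCT and 829 in PCT. Trem2 in PCT, at 1.58, was the one macrophage marker that stayed under the brightest negative control of its array.

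Neutrophil markers, by contrast with the phagocyte subunits, were unequal between PICT and OMCT, as were some macrophage markers, mostly in the other direction. Of 8 measured, 4 were higher and 0 lower in PICT versus OMCT (median 1.80), 3 higher and 0 lower in PICT versus PCT (median 1.52), and 1 higher and 2 lower in OMCT versus PCT (median 0.02), with summed intensities of 4808 in PICT, 1114 in OMCT and 697 in PCT. Most of these sums came from S100a9 (2794 in PICT, 720.1 in OMCT and 157 in PCT) and S100a8 (1376 in PICT, 136 in OMCT and 321 in PCT), which stressed keratinocytes also make. The granule genes Camp and Mmp8 stayed under the brightest negative control in both OMCT and PCT and read 39.4 and 38.3 in PICT. Lcn2 and Cxcr1 went the other way, with 21.4 and 18.2 in PICT against 46.5 and 36.2 in OMCT. Their relative differences of -0.86 and -0.72 for PICT minus OMCT were not past the rule. Among 6 B and plasma cell markers none passed the rule in any comparison, and Ms4a1, Mzb1 and Pou2af1 stayed at or under the negative controls on all arrays. Among 12 T and natural killer cell markers 3 were higher and 0 lower in PICT versus PCT, 1 higher and 1 lower in PICT versus OMCT, and 1 higher and 1 lower in OMCT versus PCT, with medians of 0.77, 0.59 and 0.19. Their summed intensity was 698 in PICT, 829.6 in OMCT and 222 in PCT, of which Cd4, a gene that rat macrophages also express, gave 157 in PICT, 498 in OMCT and 29.2 in PCT. Cd4 was the lower gene in PICT versus OMCT and Cd8a the higher one, at 103 in PICT, 31.4 in OMCT and 0.41 in PCT. The PCT value of Cd8a was under the brightest negative control. The sum was larger in OMCT than in PICT, although the list median of PICT minus OMCT was above 0, at 0.59.

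Fibroblast markers had their highest summed level in OMCT. Of 10 fibroblast markers, 0 were higher and 5 lower in PICT versus OMCT (median -0.96), 7 higher and 0 lower in OMCT versus PCT (median 1.29), and 1 higher and 1 lower in PICT versus PCT (median -0.08), with all 10 above the negative controls on every array and summed intensities of 27985.5 in PICT, 45172 in OMCT and 21707 in PCT. Divided by the array medians these sums were 496 in PICT, 787 in OMCT and 633 in PCT, so that which of PICT and PCT is the lower depends on the scaling. Endothelium is another source of Nox4. Its markers summed to 2275 in PICT, 4094 in OMCT and 2624 in PCT (40.3, 71.4 and 76.6 once divided by the array medians), and had 0 of 8 genes higher and 4 lower in PICT versus OMCT (median -1.11), with 0 past the rule between OMCT and PCT. For PICT minus PCT, where Nox4 differed by 0.33, the endothelial median was -1.08, and 4 markers passed the rule, all of them lower. As deposited, that median was -0.47 with 2 lower, and Nox4 differed by 0.94. The smooth muscle and pericyte list had 0 higher and 2 lower of 8 in PICT than in OMCT. Against PCT, 1 marker of this list passed the rule in each tissue, Rgs5 in PICT (-2.07) and Myh11 in OMCT (-1.30), both lower. The part of these cell types in the Nox4 differences was not tested.

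**Figure D4:**
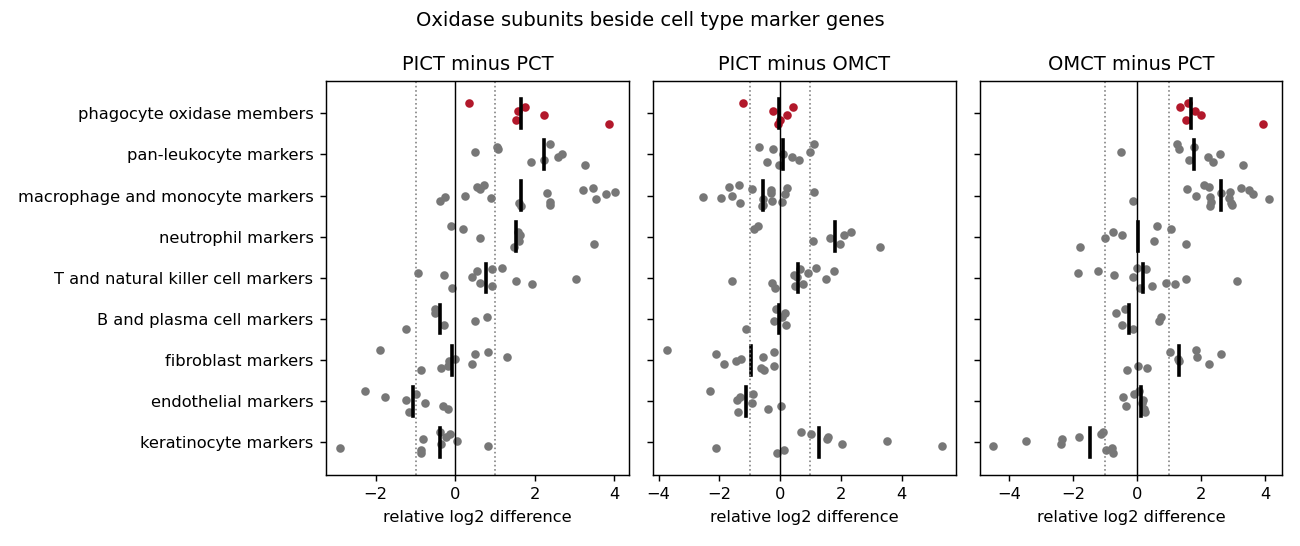
Relative log2 difference of each measured gene (points) in the oxidase set (red) and in cell type marker lists (grey), with the list median as a black bar and dotted lines at 1 and -1. The oxidase, pan-leukocyte and macrophage medians lie at 1.66, 2.22 and 1.66 for PICT minus PCT and at 1.68, 1.76 and 2.60 for OMCT minus PCT, while the fibroblast median is -0.96 for PICT minus OMCT.

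Keratinocyte marker levels and RNA control ratios also differed between arrays. Keratinocyte markers were higher in PICT versus OMCT for 6 of 10 genes and lower for 1, and lower in OMCT versus PCT for 7 of 10, with summed intensities of 43173.5 in PICT, 26504 in OMCT and 40486 in PCT (765, 462 and 1181 once divided by the array medians). For PICT minus OMCT, Krt5 and Krt14 were nearly level (-0.09 and 0.14), Krt15 was the lower one (-2.10) and Krt1 had the widest difference (5.33). Whether the amount or the kind of epithelium differed was not tested. Control probe sets at the 3' and 5' ends of a transcript give a ratio that grows with RNA breakdown, and it was 1.58 in PICT, 1.97 in OMCT and 2.80 in PCT for hexokinase, and 1.12, 1.20 and 1.46 for Gapdh. For actin it was 0.78, 0.80 and 0.92, below 1 on every array. PCT thus had the highest ratios and the lowest level of the phagocyte subunits; the part of RNA quality in those differences was not tested.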

How the data were processed

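Per the labels' protocols, total RNA of microdissected tissue was labelled with biotin by the GeneChip 3'IVT Express kit, a method read from the poly(A) end. The deposited table holds linear intensities, as their range from 0.0124 to 13104 shows; the sources used here do not say how the authors summarised or scaled them. The table held 31099 probe sets. Names came from the platform annotation of 2016, in which 20832 probe sets had 1 symbol, 436 several and 9831 none; of the 20826 used, 20758 matched a RefSeq gene ID. Each gene was taken by its probe set with the highest mean log2 (intensity + 8.56) over the 3 arrays, and single probe sets of the members are given too.

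The samples were grouped by title. The relative scale, the call rule and the distance measure are defined where first used. The members, gene lists and centring were chosen with earlier results of these data known. All members and all measured genes of the family list are named. From the other lists, those named are mainly some of the 3 widest differences among genes past the rule, and not all of these are named. Krt5, Krt14, Prkca, Prkcb, Prkcd, Prdx5, Nos2, Lpo, Calcr and the dim neutrophil and B cell markers were added after their values were seen. Of 180 list entries, 155 were measured. The 7 alternatives were: no centring, trimmed-mean scaling, quantile normalization, 2 other pseudocounts, no filter on level, and the mean of a gene's probe sets. The call rule was run on simulated arrays only to check the code. The changes planted there lay well past 2-fold in bright probe sets, and the noise was smaller than the SD between probe sets here. That run therefore cannot show how often the rule errs on these arrays. The number of arrays limits the precision. Python 3.11.15, pandas 2.3.3 and NumPy 2.4.6 were used.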

Additional observations from a re-analysis of the deposited data

How the results depend on the processing

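Each array stands for its tissue without a replicate, so no setting can show how animals vary, and leaving out a sample was not possible. No paired analysis was possible because each tissue has 1 array. The count of 5 members higher in PICT than in PCT was the same under all 7 alternatives. With a pseudocount at the median of all values, 0 members were lower in PICT than in OMCT and 5 were higher in OMCT than in PCT, Nox4 falling under 2-fold in both, as dim values are pulled together. With the mean of a gene's probe sets, 5 were higher in OMCT than in PCT, Cyba dropping to 0.86 because its dim probe set enters. The phagocyte subunits' brightest probe sets ranged over the settings from 1.09 (Ncf4) to 4.46 (Cybb) for PICT minus PCT and from 1.05 (Rac2) to 4.55 (Cybb) for OMCT minus PCT, while Nox4 ranged from -0.01 to 0.94 for PICT minus PCT. No called member difference changed sign. Over all genes, the values as deposited gave 2009 higher and 128 lower genes for PICT minus PCT and 2501 higher and 298 lower for OMCT minus PCT. The median pseudocount gave 130 lower for PICT minus PCT, 333 lower for OMCT minus PCT, and 352 higher and 375 lower for PICT minus OMCT. Without the filter on level 945 were lower for PICT minus PCT and 1163 for OMCT minus PCT. The other 73 of 84 counts stayed within 1.5 times.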

Other observations

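Nitric oxide synthases and peroxidases work beside the oxidase. Nos3, the endothelial nitric oxide synthase, read 92.2 in PICT, 277 in OMCT and 76.9 in PCT, a relative difference of -1.48 for PICT minus OMCT, 1.12 for OMCT minus PCT and -0.36 for PICT minus PCT. Nos2, the inducible synthase of macrophages, read 194 in PICT, 162 in OMCT and 103 in PCT and differed by 0.26 for PICT minus PCT, -0.01 for OMCT minus PCT and 0.27 for PICT minus OMCT, none past the rule. Lpo, the peroxidase of saliva and milk that uses hydrogen peroxide, read 55.9 in PICT, 5.02 in OMCT and 20.6 in PCT, below the array median throughout.

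Osteoclasts, which are of the same lineage as macrophages, had 4 of 6 measured markers higher and 0 lower in PICT versus PCT (median 1.17), 5 higher and 0 lower in OMCT versus PCT (median 1.29) and 1 higher and 0 lower in PICT versus OMCT (median -0.30). Ctsk, cathepsin K, read 1815 in PICT, 3314 in OMCT and 440.3 in PCT. Mmp9, a gelatinase that neutrophils carry too, read 1836 in PICT, 614 in OMCT and 166 in PCT. Calcr, the calcitonin receptor that marks mature osteoclasts, read 8.76 in PICT, 11.0 in OMCT and 5.25 in PCT, close to the negative controls. Among 9 mast cell and eosinophil markers, 1 was higher and 0 lower in each comparison, the sialic acid-binding receptor Siglec5 (793 in PICT, 215 in OMCT and 52.7 in PCT). Of this list, 7 stayed at or under the brightest negative control in PICT, 2 in OMCT and 4 in PCT.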
